A study of Equus caballus with 19 samples.

Results

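The genes described here encode 10 antioxidant enzymes, namely the superoxide dismutases SOD1, SOD2 and SOD3, catalase (CAT), glutathione peroxidase 3 (GPX3), heme oxygenase 1 (HMOX1), the quinone reductase NQO1, thioredoxin reductase 1 (TXNRD1) and both subunits of glutamate-cysteine ligase (GCLC and GCLM). They were taken by gene name from the count tables of both batches and were 10 of the 29196 gene names listed. All 10 passed the filter on low values in both batches. The libraries were RNA sequencing libraries of primary equine tenocytes, which are the resident cells of tendon, from the superficial digital flexor tendon. Cells labelled as wild type were seeded in 3D gels of bovine type 1 collagen and harvested at day 14.

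In the first batch, tenocyte lines 1 to 5 were each cultured without stimulation (control) or with 1 nM IL-1β, an inflammatory cytokine, which gave 10 libraries. In the second batch, lines 6 to 8 were cultured as control, with 1 nM IL-1β, or with 1 nM IL-1β and 100 ng/ml IL1Ra, the natural antagonist of the IL-1 receptor, which gave 9 libraries. Each line is the cells of 1 donor horse, so libraries of the same line are paired across conditions, and 1 library stands for each line and condition. No condition with IL1Ra alone was analysed here.

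Superoxide dismutases turn superoxide into hydrogen peroxide, which catalase, glutathione peroxidases and peroxiredoxins then reduce to water. Glutathione peroxidases and peroxiredoxins draw on glutathione and thioredoxin, which glutathione reductase and thioredoxin reductase restore with electrons from NADPH. The genes for many of these enzymes, among them HMOX1, NQO1, TXNRD1, GCLC and GCLM, are classical targets of the transcription factor NRF2 (encoded by NFE2L2), which KEAP1 holds in check in unstressed cells, whereas SOD2 is a well-known target of NF-κB.

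The values are DESeq2-normalised counts, that is, gene counts scaled so that libraries of a batch can be compared. Library sums ran from 43.4 M to 49.2 M for lines 1 to 5 and from 25.0 M to 34.6 M for lines 6 to 8, and each batch was normalised and tested separately. Of 10 tenocyte markers, 9 were listed and COL3A1 was not used. TNMD, a marker of mature tenocytes, was at 0 in the 10 first-batch libraries. The summed tenocyte markers ran from 1074940 to 1811600 in control and from 427885 to 855985 with IL-1β in the first batch. For lines 6 to 8 this sum ran from 276629 to 861359 in control, 311526 to 473828 with IL-1β and 156284 to 797762 with IL-1β and IL1Ra. The summed counts of 10 leukocyte markers were 60.2 to 2079 in control and 312 to 3713 with IL-1β in the first batch, and 235 to 1273.5, 686 to 3059 and 741 to 2058 in control, IL-1β and IL-1β with IL1Ra in the second. CD68 and CD14 made up most of these sums, whereas the pan-leukocyte gene PTPRC was at 0 in every first-batch control library and at most 6.46 in any library. Summed endothelial markers were 15.2 to 91.0 across all libraries. In the first batch the tenocyte sums were thus lower with IL-1β without overlap and the leukocyte sums lay in a higher, overlapping range. The tenocyte sum was mostly collagen. In lines 1 to 5 SCX was 822 to 2110 in control and 9.69 to 205 with IL-1β, and MKX 792 to 4654 and 33.6 to 459. The medians of TNC, FMOD and THBS4 there were 79912, 7838 and 41.6 in control and 9522, 3318 and 1.05 with IL-1β. DCN, which encodes the matrix proteoglycan decorin, went the other way. It ran from 44076 to 93119.6 in control and 67407.5 to 132486 with IL-1β in lines 1 to 5. In lines 6 to 8 DCN ran from 29947 to 55627 and 85794.5 to 170170.0. By itself, the leukocyte marker CD68 did not overlap in the first batch, at 56.4 to 173 in control and 296 to 1359 with IL-1β. It was also higher in each of lines 6 to 8, at 66.6 to 287 in control and 181 to 1769 with IL-1β. CD14 was 0 to 1947 in control and 0 to 2811 with IL-1β in lines 1 to 5. The part of these genes and sums in the results below was not tested. In bulk libraries such as these, a lower share of one kind of cell and less RNA per cell cannot be told apart.

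IL-1β against control in the first batch asked which of these enzymes respond to the cytokine. SOD2, TXNRD1, HMOX1 and NQO1 rose and GPX3 fell, each in 5 of 5 lines, whereas SOD1, SOD3, CAT, GCLC and GCLM did not pass the test. A gene was called differentially expressed (DE) when its adjusted p value was under 0.05 and its log2-fold change was at least 1 in either direction, over the 14719 genes tested with limma. By that rule 5 of the 10 members were DE, of which 4 were higher and 1 was lower, beside 12.8% of all genes tested (4.91% higher and 7.9% lower). The control and IL-1β libraries of the same 5 members did not overlap, beside 19.5% of all genes tested. The median log2-fold change was 0.56 over the members and -0.0034 over all genes. The members were chosen with earlier results of these data known, so the values over all genes are set beside theirs as a description only. Fold changes are differences of log2(normalised count + 1).

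SOD2, the mitochondrial manganese superoxide dismutase, had the largest estimated rise of the 10. Its normalised counts were 10195, 12448, 8176, 10481 and 6451 in the control libraries of lines 1 to 5 and 85675, 75276, 117575, 73116 and 47080.6 in their IL-1β libraries. The lowest IL-1β library, that of line 5, lay well above the highest control library, and within lines the ratio ran from 6.05 in line 2 to 14.4 in line 3. The log2-fold change was 3.04 (SE 0.25, 95% interval 2.49 to 3.58, adjusted p = 3.70e-05), a fold of 8.21.

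The other superoxide dismutases differed less. SOD1, the cytosolic copper-zinc enzyme, had counts of 3328, 2899.9, 3226, 2726 and 2708 in control and 4271, 4229, 4129, 2649 and 2985 with IL-1β. Lines 1, 2 and 3 were above all control libraries with IL-1β, while lines 4 and 5 lay within or beside the control range. The log2-fold change of 0.27 (95% interval -0.05 to 0.60, adjusted p = 0.199) did not pass the test. In a limma fit that blocks on tenocyte line, which uses the pairing, its interval was 0.05 to 0.49 (adjusted p = 0.0528), and it was again not DE. SOD3, the secreted enzyme that binds extracellular matrix, had control counts of 9622, 2619, 259.6, 827 and 1799 and IL-1β counts of 2928, 1267, 575, 1619.7 and 2576. It was lower with IL-1β in lines 1 and 2, which had the highest control counts, and higher in lines 3, 4 and 5, so the log2-fold change was -0.03 with a wide interval of -1.88 to 1.83 (adjusted p = 0.986). With the block the interval was -1.09 to 1.04.

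Among the peroxide-removing enzymes, GPX3, a secreted glutathione peroxidase, was the 1 member that fell. Control counts were 80.0, 162, 672, 897 and 541 in lines 1 to 5, and IL-1β counts were 15.7, 56.0, 61.8, 53.3 and 50.9. Lines 3, 4 and 5 had by far the highest control counts, but with IL-1β lines 2 to 5 were nearly level and line 1 was the lowest in both conditions. The log2-fold change was -2.93 (SE 0.67, 95% interval -4.41 to -1.45, adjusted p = 0.00907), a 7.61-fold decrease.

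CAT, the peroxisomal catalase, had control counts of 5645, 4639.6, 15213, 15069 and 8906 and IL-1β counts of 5931, 4888, 5829, 5871 and 4146. The IL-1β libraries were close together at the lower end of the control range, with lines 3, 4 and 5 lower than their controls by log2 ratios of -1.38, -1.36 and -1.10 and lines 1 and 2 at 0.07 and 0.08. The log2-fold change was -0.74 (95% interval -1.46 to -0.02, adjusted p = 0.115), which did not pass the test over all genes.

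HMOX1, which breaks down heme to biliverdin, iron and carbon monoxide, had control counts of 2375, 2588, 9909, 5002 and 5489 and IL-1β counts of 10522, 14238, 20009, 14252 and 12790.1. The groups came close, since the control of line 3 was just under the IL-1β library of line 1, but they did not overlap. HMOX1 rose by a log2-fold change of 1.67 (SE 0.36, 95% interval 0.88 to 2.46, adjusted p = 0.00690), and the ratio within lines ran from 2.02 in line 3 to 5.50 in line 2. NQO1, which reduces quinones with electrons from NADPH or NADH, had control counts of 1452, 1549, 1097, 1058 and 1142 and IL-1β counts of 4429, 2805, 3526, 2214 and 2756. Its log2-fold change was 1.30 (SE 0.19, 95% interval 0.88 to 1.71, adjusted p = 8.64e-04).

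TXNRD1, the cytosolic thioredoxin reductase, had control counts of 5647, 9367, 4269.9, 3602 and 4022 and IL-1β counts of 35789.9, 28629, 30826, 17839 and 23747. Line 2 had the highest control count, still well under the lowest IL-1β library, that of line 4. The log2-fold change was 2.40 (SE 0.27, 95% interval 1.805 to 2.994, adjusted p = 2.26e-04), a fold of 5.28.

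The subunits of glutamate-cysteine ligase, the enzyme of the first step of glutathione synthesis, did not pass the test. GCLC, the catalytic subunit, had control counts of 2103, 2183, 4172, 3420.3 and 3116 and IL-1β counts of 11927, 4538, 4921, 2812 and 5026. Line 1 stood far above the others with IL-1β, line 4 was lower than its control, and the log2-fold change was 0.84 (95% interval 0.09 to 1.59, adjusted p = 0.0910). With the block the interval was -0.04 to 1.72 (limma adjusted p = 0.108). GCLM, the regulatory subunit, had control counts of 1378, 1283, 2928, 1710.1 and 1379 and IL-1β counts of 1700.0, 1616, 2358, 1713.5 and 1226, with a log2-fold change of 0.03 (95% interval -0.50 to 0.56, adjusted p = 0.941).

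**Figure D1:**
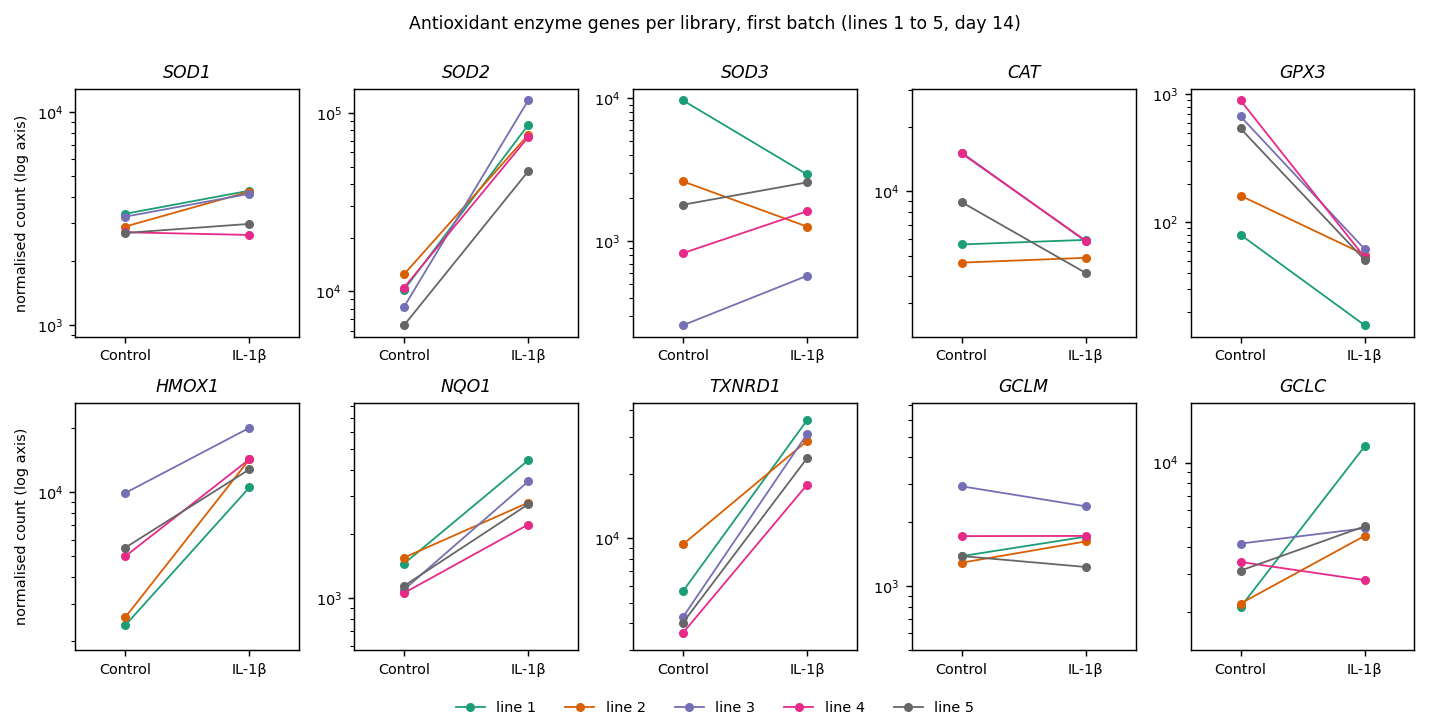
Normalised counts (log axis) of the 10 antioxidant enzyme genes in control and IL-1β libraries of lines 1 to 5, with 1 point per library and a line joining the libraries of the same tenocyte line. SOD2, HMOX1, NQO1 and TXNRD1 are higher and GPX3 is lower with IL-1β in 5 of 5 lines, while SOD3 and CAT differ in direction between lines.

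The same comparison in the second batch showed whether the response recurred in lines 6 to 8. SOD2 rose there too and was the 1 member called DE, beside 0.341% of the 16705 genes tested. HMOX1, TXNRD1 and NQO1 were also higher with IL-1β in 3 of 3 lines but missed the threshold without a block. In the fit that blocks on tenocyte line, 3 members were DE (SOD2, HMOX1 and TXNRD1), beside 5.18% of all genes. The control and IL-1β libraries of 4 members (SOD2, HMOX1, NQO1 and TXNRD1) did not overlap, beside 16.4% of all genes. The median log2-fold change was 0.85 over the members and -0.0084 over all genes.

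SOD2 counts in lines 6, 7 and 8 were 9965, 5050.1 and 2595 in control and 60649.8, 49943 and 56468 with IL-1β. The control libraries spread 3.84-fold and the IL-1β libraries 1.21-fold, so line 8, with the lowest control, had the largest ratio of 21.8. The log2-fold change was 3.45 (SE 0.45, 95% interval 2.41 to 4.49, adjusted p = 0.0297, and 0.00652 with the block). The call was lost without line 7 (log2-fold change 3.52, adjusted p = 0.433), without line 8 (2.96, adjusted p = 0.672) and when the IL1Ra libraries were left out of the fit (adjusted p = 0.0752).

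HMOX1 counts were 8659.96, 1802 and 1598 in control and 17833, 14241 and 12791 with IL-1β. Line 6 was highest in both conditions, and its control came nearest to the IL-1β group. The log2-fold change was 2.34 (SE 0.57, 95% interval 1.03 to 3.66, adjusted p = 0.160, and 0.0370 with the block).

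TXNRD1 counts were 4251, 2953 and 2661 in control and 13811, 16177 and 9519 in the IL-1β libraries, and the log2-fold change was 2.00 (SE 0.43, 95% interval 1.01 to 2.99, adjusted p = 0.120, and 0.0336 with the block). NQO1 counts were 907, 691 and 395 in control and 1421, 3349 and 2914 with IL-1β, with the smallest ratio in line 6. Its log2-fold change of 1.93 (SE 0.48, 95% interval 0.83 to 3.04) had an adjusted p of 0.165, and of 0.0518 with the block.

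For the other members lines 6, 7 and 8 differed in direction. GPX3, which fell in the first batch, had control counts of 439, 90.7 and 72.5 and IL-1β counts of 237, 188 and 234, so it was lower with IL-1β in line 6 and higher in lines 7 and 8 (log2-fold change 0.61, 95% interval -1.36 to 2.58, adjusted p = 0.882). SOD3 counts were 121, 4271 and 3469 in control and 630.3, 1634 and 1575 with IL-1β, so it was higher in line 6 and lower in lines 7 and 8 (log2-fold change -0.05, 95% interval -3.46 to 3.35). CAT counts were 12631, 2650.2 and 1881 in control and 5166, 2511 and 3381 with IL-1β.

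GCLC counts were 2611, 1001 and 1051 in control and 2125, 4521 and 2739 with IL-1β, higher in lines 7 and 8 and lower in line 6 (log2-fold change 1.09, 95% interval 0.01 to 2.16, adjusted p = 0.432). The log2-fold changes of SOD1, CAT and GCLM were 0.19, -0.17 and -0.20, and none passed the test. Without line 6, 4 members were DE, beside 1.94% of all genes, namely SOD2, HMOX1 (2.99, adjusted p = 0.00776), NQO1 (2.58, adjusted p = 0.0263) and SOD3 (-1.26, adjusted p = 0.0420), from fits with 2 lines per condition. The tables were normalised separately, and the difference between the batches in the response of GPX3 or any other member was not tested.

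IL-1β with IL1Ra was compared with control to see which members still differed from unstimulated cells when the receptor antagonist was present. No member was DE, beside 0.012% of all genes (2 of 16705), while 3 members (SOD2, HMOX1 and TXNRD1) had an unadjusted limma p under 0.05, beside 5.67% of all genes. In the blocked fit SOD2 was DE, beside 0.251% of all genes. The groups did not overlap for SOD2 and HMOX1, beside 11.8% of all genes. The median log2-fold change over the members was 0.72, against 0.0095 over all genes.

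SOD2 counts with IL-1β and IL1Ra were 71038, 83855 and 53976 in lines 6, 7 and 8, all within or above the IL-1β group. Against control the log2-fold change was 3.76 (95% interval 2.71 to 4.80, adjusted p = 0.0779, and 0.0267 with the block), a fold of 13.5. HMOX1 counts were 14000.4, 13779.8 and 16655, again within the range of the IL-1β libraries, with a log2-fold change of 2.34 (95% interval 1.02 to 3.65, adjusted p = 0.566). Without line 6 both were DE in this comparison, beside 0.216% of all genes, SOD2 at 4.22 (adjusted p = 0.0390) and HMOX1 at 3.16 (adjusted p = 0.0128).

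TXNRD1 and NQO1 with IL1Ra lay between the other conditions in lines 7 and 8 and under the control in line 6. TXNRD1 counts were 3483, 11767 and 6484, and NQO1 counts were 689, 1409 and 1831. Against control the log2-fold changes were 1.00 (95% interval 0.01 to 1.99) for TXNRD1 and 0.95 (95% interval -0.16 to 2.05) for NQO1, with adjusted p values of 0.877 and 0.950. Without line 6 they were 1.64 and 1.62.

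IL-1β with IL1Ra against IL-1β alone asked which members the antagonist moved. No member was DE in this comparison, beside 0.0% of all genes, and with the block no member was DE, beside 0.00599% (1 of 16705). TXNRD1 was lower in 3 of 3 lines. With IL1Ra it was 2.00-fold lower than with IL-1β alone (95% interval of the log2-fold change -1.99 to -0.01), and it was the 1 member with an unadjusted limma p under 0.05, beside 2.78% of all genes. Without line 6 its log2-fold change was -0.51. NQO1 was lower in 3 of 3 lines by -0.99 (95% interval -2.09 to 0.11). SOD2 differed by 0.30 (95% interval -0.74 to 1.34) and HMOX1 by -0.01 (95% interval -1.32 to 1.31). Both intervals span differences in either direction. The groups did not overlap for 1 member, GCLM, beside 6.47% of all genes. GCLM counts were 1627, 805 and 1725 with IL-1β and 1961, 2391 and 1905 with IL-1β and IL1Ra (log2-fold change 0.66, adjusted p above 0.99). The median log2-fold change was -0.09 over the members and 0.0088 over all genes.

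Both IL1Ra comparisons share libraries with the IL-1β comparison, so the change that was left with IL1Ra is given per line as a description. Of the log2 change of SOD2 with IL-1β, 109%, 123% and 98.5% was left with IL1Ra in lines 6, 7 and 8, and of HMOX1 66.5%, 98.4% and 113%. Of TXNRD1 -16.9%, 81.3% and 69.9% was left, and of NQO1 -61.3%, 45.1% and 76.7%, where a negative share means that the library lay past its control. Of GCLC, which was not DE, 75.5% and 29.6% was left in lines 7 and 8. In line 6 SOD2 and HMOX1 thus kept most of their difference from control, while TXNRD1 and NQO1 were under the control level. In lines 7 and 8 SOD2 and HMOX1 kept 98.4% or more, and TXNRD1 and NQO1 kept smaller shares. The shares of TXNRD1 in lines 7 and 8 and of NQO1 in line 8 were still above that of HMOX1 in line 6. The difference between these genes was not tested. In line 6 with IL1Ra, SOD3 (128) was next to its control of 121, and CAT (22743) and GPX3 (831) were above their controls. SCX, a transcription factor that marks tendon cells, was named for this after its values were seen. In line 6 it was 4720.02 in control, 278 with IL-1β and 1523 with IL1Ra. In lines 7 and 8 it was 266 and 105 in control, 43.5 and 13.6 with IL-1β and 30.2 and 10.5 with IL1Ra. Not all tenocyte markers ran like SCX. Over lines 6 to 8 TNC was 39094 to 71309 in control, 7261 to 15121 with IL-1β and 24317 to 49157 with IL1Ra. The medians in that order were 151, 16.8 and 121 for MKX and 1228, 263 and 1899 for FMOD. The median of THBS4 was not higher with IL1Ra, at 16.4, 13.8 and 8.51. The part of SCX or of other tenocyte genes in the result of line 6 was not tested.

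**Figure D2:**
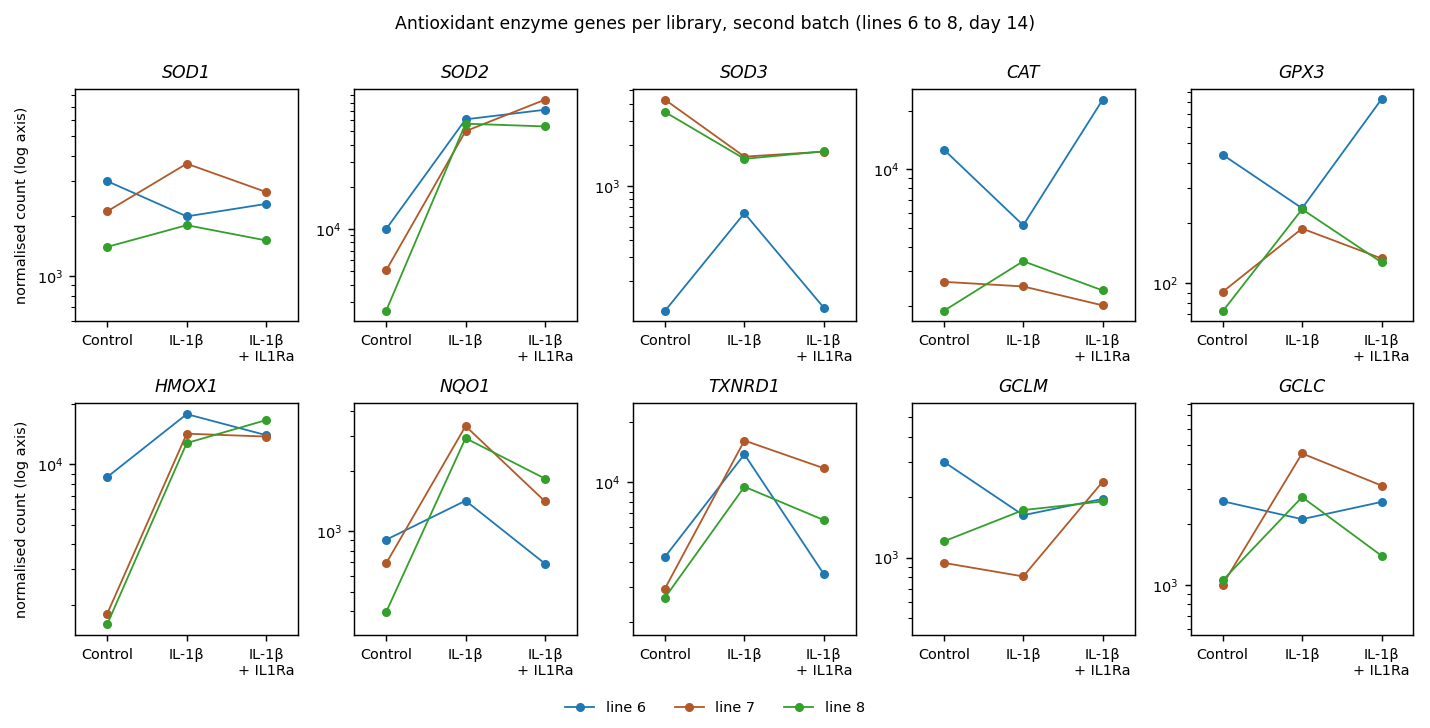
Normalised counts (log axis) of the 10 genes in control, IL-1β and IL-1β with IL1Ra libraries of lines 6, 7 and 8, with 1 point per library. SOD2 and HMOX1 with IL1Ra stay above their controls in the 3 lines, whereas TXNRD1 and NQO1 in line 6 are under their control.

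**Figure D3:**
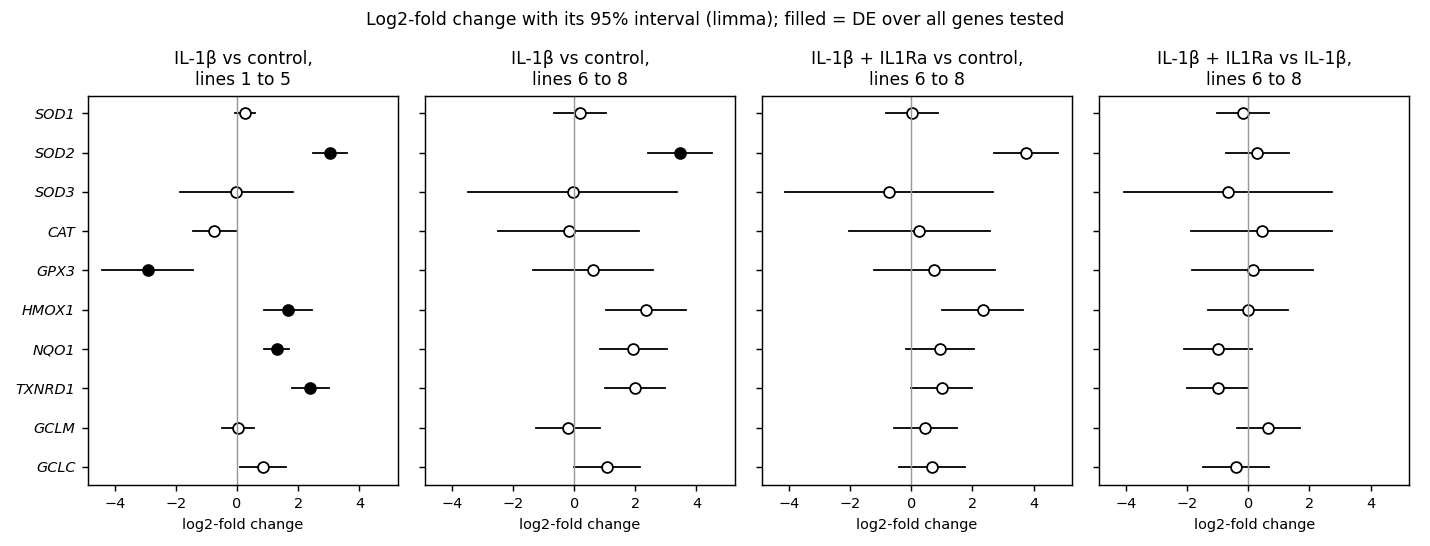
Log2-fold change of each gene (points) with its 95% interval from limma (bars) in the 4 comparisons, with filled points for DE genes. In lines 1 to 5 SOD2, HMOX1, NQO1 and TXNRD1 are filled above 0 and GPX3 below 0, in lines 6 to 8 SOD2 is filled for IL-1β against control, and no point is filled in either IL1Ra comparison.

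Control levels of SOD3, GPX3, HMOX1 and CAT differed widely between lines. The highest control count of SOD3 was 37.1 times the lowest in lines 1 to 5 and 35.2 times in lines 6 to 8, that of GPX3 11.2 and 6.05 times, that of HMOX1 4.17 and 5.42 times and that of CAT 3.28 and 6.72 times. Lines 3, 4 and 5 had the 3 highest control counts of CAT, GPX3 and HMOX1 and the 3 lowest of SOD3. In the second batch line 6 was likewise highest for CAT, GPX3 and HMOX1 and lowest for SOD3. GCLC ran like CAT, at 2103 and 2183 in lines 1 and 2 and 4172, 3420.3 and 3116 in lines 3, 4 and 5. It was also highest in line 6. GCLM did the same, but its control in line 5 (1378.9) was barely above that in line 1 (1377.9). NQO1 and TXNRD1 had their 3 lowest first-batch controls in lines 3, 4 and 5, but line 6 was their highest in the second batch. SCX was also higher in lines 3, 4 and 5 in control, at 822 and 1075 in lines 1 and 2 and at 2110.1, 1919 and 1516 in lines 3, 4 and 5. CD68 ran the other way, at 173 and 124 in lines 1 and 2 and 58.3, 56.4 and 86.0 in lines 3, 4 and 5. These orders were noticed in the data, they rest on few lines, and they were not tested.

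The standard deviation of log2 values between lines was smaller with IL-1β than in control for 6 of 10 members in lines 1 to 5 and 7 of 10 in lines 6 to 8, beside 46.5% and 38.0% of all genes tested. In the first batch it was larger with IL-1β for SOD1 (0.14 in control and 0.33 with IL-1β), SOD2 (0.37 and 0.48), NQO1 (0.25 and 0.38) and GCLC (0.43 and 0.75). In the second batch SOD2 (0.97 and 0.14) and GCLC (0.78 and 0.55) went the other way, while SOD1 (0.54 and 0.55) and NQO1 (0.61 and 0.66) did not. SOD3, GPX3, HMOX1 and CAT were named for their wide control spread, so a narrower spread of these 4 in another condition is given as a description only. Their highest-to-lowest ratio with IL-1β was 5.09 and 2.59 for SOD3 in the first and second batch, 3.93 and 1.26 for GPX3, 1.90 and 1.39 for HMOX1 and 1.43 and 2.06 for CAT. With IL1Ra the ratio was 14.0 for SOD3, 11.3 for CAT and 6.52 for GPX3, wider than in control for CAT and GPX3, and 1.21 for HMOX1.

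**Figure D4:**
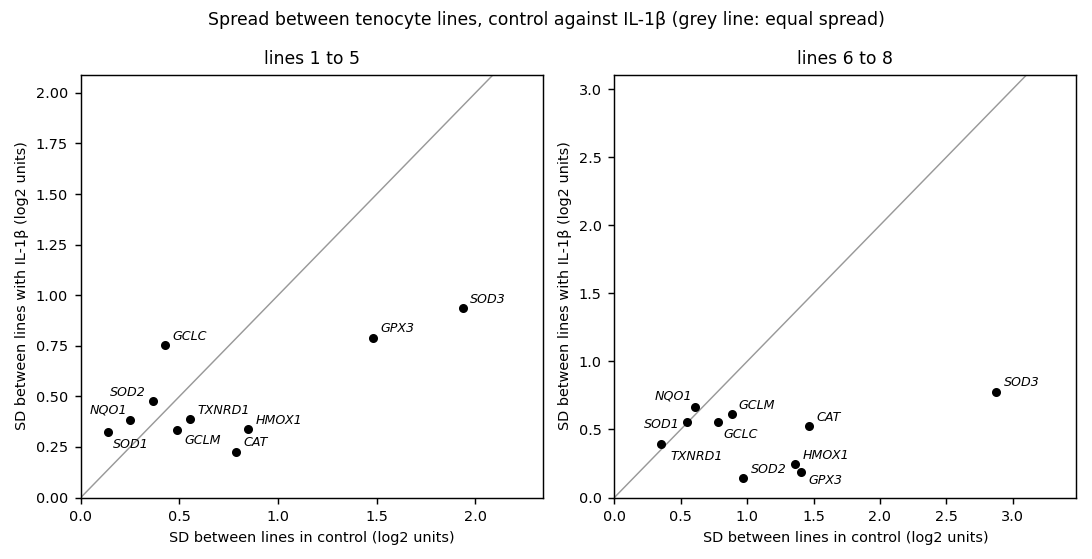
Standard deviation between tenocyte lines of log2 values in control (horizontal) and with IL-1β (vertical), 1 point per gene, with a grey line at equal spread. SOD3, GPX3, HMOX1 and CAT lie well under the line in both batches, whereas SOD1, SOD2, NQO1 and GCLC lie above it in lines 1 to 5.

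The other genes of the antioxidant system were described with 7 lists of 84 genes, of which the first batch had 69 that were tested and the second 73. These lists, like the members, were chosen with earlier results of these data known. In the first batch 11 of the 69 were DE and higher with IL-1β and 5 were DE and lower, each in 5 of 5 lines, beside 4.91% and 7.9% of all genes. Their median log2-fold change was 0.30, against -0.0034 over all genes, and by list it was 0.47 for NRF2 control, 0.24 for thioredoxin and peroxiredoxin, -0.01 for glutathione, 0.47 for heme and quinone handling, 0.59 for NADPH supply, 0.48 for copper delivery and -0.27 for oxidant production. Of the genes that control the NRF2 pathway, 2 of 8 were DE, and both were higher. MAFG, a small MAF protein that binds DNA together with NRF2, rose by 1.13 (adjusted p = 5.12e-04), and SQSTM1, an adaptor that binds KEAP1, rose by 1.57 (adjusted p = 1.93e-04). NFE2L2 itself was at 6006 to 8329 in control and 11949 to 13673 with IL-1β, and its log2-fold change of 0.87 (adjusted p = 2.15e-04) was under the fold threshold for DE. KEAP1 differed by 0.55 (adjusted p = 0.00925), also under that threshold. BACH1, a repressor of HMOX1, differed by -0.02 (95% interval -0.32 to 0.28).

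In the thioredoxin and peroxiredoxin list 2 of 16 genes rose and 1 fell by the DE rule. Beside this and the list counts below, 4.91% of all genes tested were DE and higher and 7.9% were DE and lower. Thioredoxin itself (TXN), the substrate of TXNRD1, rose by 1.23 (adjusted p = 0.0237), and PRDX1, a peroxiredoxin that draws on thioredoxin, rose by 1.11 (adjusted p = 0.00351). TXNIP, which binds and inhibits thioredoxin, fell by 2.37 on the log2 scale (adjusted p = 0.00326). In the glutathione list 2 of 15 tested genes rose and 2 fell. SLC7A11, the transporter that brings in cystine for glutathione synthesis, rose by 2.02 (adjusted p = 0.00927) and glutathione reductase GSR by 1.20 (adjusted p = 0.00326). CHAC1, which degrades glutathione, fell by 2.40 (adjusted p = 0.00182) and the glutathione transferase GSTK1 by 1.42 (adjusted p = 0.00129).

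In the heme and quinone handling list 2 of 10 tested genes rose and 1 fell. Biliverdin reductase B (BLVRB) rose by 1.88 (adjusted p = 0.00733) and OSGIN1, a growth inhibitor induced by oxidative stress, by 1.18 (adjusted p = 0.00776). EPHX1, an epoxide hydrolase and not a heme or quinone enzyme in the strict sense, fell by 3.53 (adjusted p = 0.0114). IDH1, a cytosolic source of NADPH, was the 1 DE gene of 8 in the NADPH supply list (1.18, adjusted p = 5.19e-04), and the copper importer SLC31A1 the 1 of 5 in the copper delivery list (1.15, adjusted p = 5.25e-04). Over all genes tested 12.8% were DE, so 1 of 8 was near that share, and 1 of 5 rests on few genes. Of 7 tested genes for oxidant production, the NADPH oxidase subunit CYBA rose by 1.17 (adjusted p = 4.91e-04) and NOX4, an oxidase that makes hydrogen peroxide, fell by 1.38 (adjusted p = 0.0295).

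**Figure D5:**
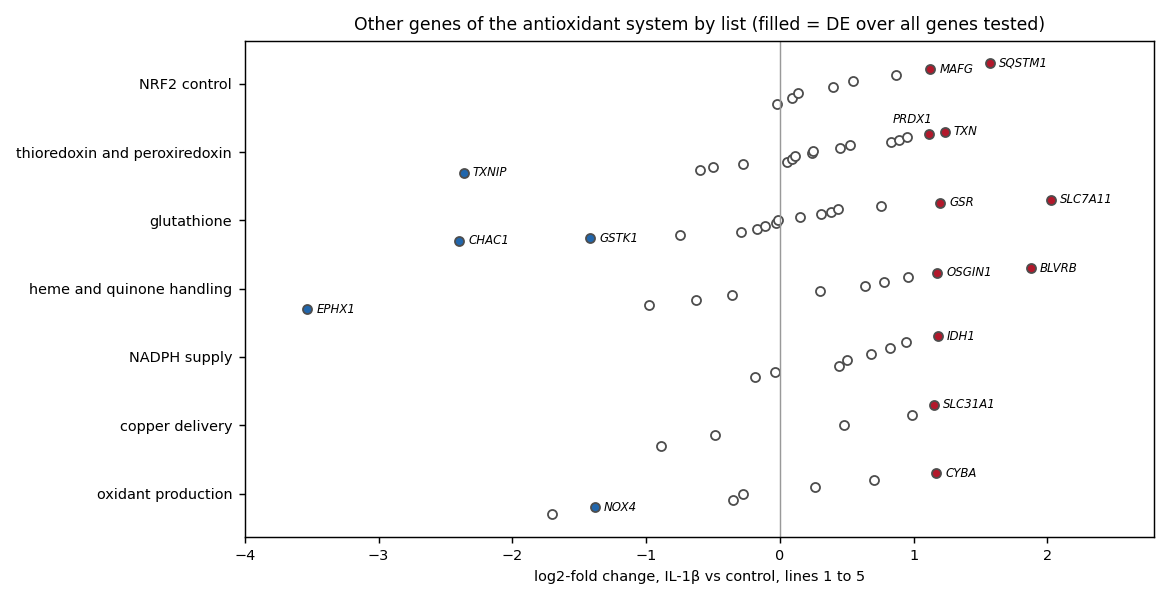
Log2-fold change (horizontal) between IL-1β and control in lines 1 to 5 for the 69 tested genes of 7 lists of the antioxidant system (rows), 1 point per gene, filled red for DE and higher and filled blue for DE and lower. Of the points, 11 are filled above 0 and 5 below 0, and the filled genes are named.

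In the second batch the median log2-fold change of the listed genes between IL-1β and control was 0.39, and by list it ran from -0.57 for oxidant production to 0.53 for heme and quinone handling. MAFG (1.39, adjusted p = 0.0381) was the 1 gene of the 73 that was DE in this comparison, beside 0.341% of all genes. In the blocked fit 8 were DE, beside 5.18% of all genes, among them MAFG, SQSTM1 (1.52, adjusted p = 0.0202), IDH1 (1.235, adjusted p = 0.0116), SLC31A1 (1.27, adjusted p = 0.0303), PRDX6 (1.14, adjusted p = 0.0494) and TXNIP (-1.51, adjusted p = 0.0382). PRDX6 is a peroxiredoxin that draws on glutathione. The 8 also hold the gamma-glutamyltransferase GGT5, which passed the filter on low values only through its libraries with IL-1β, alone or with IL1Ra, so its call supports nothing. It had 0 to 4.37 in control and 8.26 to 141 with IL-1β, and was not tested in the first batch, where it had 0 to 0.883 in control and 6.43 to 156 with IL-1β. NFE2L2 differed by 0.92 (adjusted p = 0.118, and 0.0387 with the block, under the fold threshold in both), KEAP1 by 0.50 (adjusted p = 0.454) and BACH1 by -0.29 (adjusted p = 0.884). With IL1Ra no gene of the lists was DE against control or against IL-1β alone, with or without the block, while 7 and 3 of the 73 had an unadjusted limma p under 0.05, beside 5.67% and 2.78% of all genes. MAFG differed from control by 0.99 (adjusted p = 0.369) with IL1Ra, and its counts of 2841 to 3174 lay between those of control (1318 to 2047) and IL-1β (3769.9 to 4374). TXNIP with IL1Ra differed from control by 0.05 and was higher than with IL-1β alone in 3 of 3 lines, with overlapping groups. Its log2-fold change against IL-1β alone was 1.55 (95% interval 0.17 to 2.93, limma adjusted p = 0.9999, and 0.207 with the block), which did not pass the test.

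The genes whose log2 values ran most like SOD2 over the 10 first-batch libraries were NT5C2 (Pearson's r 0.986), YIPF4 (0.985) and AGTRAP (0.984), and over the 9 second-batch libraries their r with SOD2 was 0.792, 0.783 and 0.801. For GPX3 they were SBNO2 (0.988), PLEKHG5 (0.985) and RASIP1 (0.985) in the first batch, with 0.0825, 0.842 and 0.817 in the second. These libraries share lines and conditions, and the values describe likeness over libraries and carry no test.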

How the data were processed

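Primary equine tenocytes in 3D collagen gels were sequenced at day 14, as 10 libraries of 5 lines in the first batch and 9 libraries of 3 lines in the second. The signal values deposited by the authors are DESeq2-normalised counts, with 1 table per batch. Salmon was used by the authors to quantify the EquCab3.0 transcriptome, tximport to collapse transcripts to genes, and DESeq2 1.36 in R 4.2.1 to normalise the gene counts. Columns were mapped to samples by their labels (0 unmapped), 0 pairs of libraries were identical, and library sums are given in the report. Reads were not recovered and intervals cover the spread between lines. Separate processing of the batches means that values are compared only within a batch.

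The filter on low values kept genes that reached 10 normalised counts in 5 or more libraries of the first batch or 3 or more of the second. Values were put on the scale log2(normalised count + 1), and limma 3.58.1 (R 4.3.3) was run as lmFit followed by eBayes with its trend option and no block. P values were adjusted by Benjamini-Hochberg over all genes tested. The 3 second-batch conditions shared 1 fit. The script was tested on simulated data. Lines pair the libraries by donor. Deviations from the condition means correlated at 0.351 to 0.578 (5 pairs) and 0.535 to 0.794 (9 pairs) within a line. Between lines they correlated at -0.356 to 0.288 (20 pairs) and -0.625 to 0.249 (18 pairs). Centring each condition on its own mean lowers the between-line values by construction, so their range is not an independent contrast. The alternative fits used the line as a block, other pseudocounts (0.5 and 10), no filter, quantile normalisation, equal library sums, no trend, only the compared conditions, and each line left out.

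The 10 members and the 7 lists were chosen with earlier results of these data known. Named were the 10 members, from the lists the DE genes (at most 5 per list) with NFE2L2, KEAP1 and BACH1, and the 3 genes most correlated with the member of largest rise and of largest fall. GGT5, PRDX6, SCX, CD68, TNC, MKX, FMOD and THBS4 were named after their values were seen. GSTP1, CBR1, CBR3 and XDH were not used, and 1 gene of the lists is not reported here. All 10 member names matched a RefSeq gene table of another horse assembly, so no coordinates or sequences are given.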

Additional observations from a re-analysis of the deposited data

Results flagged for a closer look

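Outliers were sought on unlogged normalised counts in 20 groups of 5 libraries (10 genes in control and in IL-1β, first batch). Of these groups, 4 held a library farther from the others than Dixon's critical value of 0.710 allows. Chance gives about 1 in 20 where groups are independent and values are normally distributed. These counts were unlogged and the 20 groups shared 10 libraries, so that rate is only a rough guide. Line 1 accounted for 3 of the 4. Its control count of SOD3 (9622) was far above the other 4 lines, its IL-1β count of GPX3 (15.7) was far under them, and its IL-1β count of GCLC (11927) was far above them. Without line 1 the log2-fold change of SOD3 was 0.40, that of GPX3 -3.09 (adjusted p = 0.00321 with limma) and that of GCLC 0.43. The control count of GCLM in line 3 (2928) was also far above the other lines, and without line 3 the log2-fold change of GCLM was 0.12. On the log2 scale, tried after the values were seen, 1 of the 20 groups, GPX3 with IL-1β, was past that value (0.856). That is no more than the chance rate of about 1 in 20. What sets these libraries apart was not tested.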

How the results depend on the processing

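Between IL-1β and control in the first batch, 5 members were DE under all alternatives run, and 116 of 120 alternative member values kept their direction and their side of the thresholds. The 4 others turned direction when a line was left out, in ranges of SOD3 -0.32 to 0.40 and GCLM -0.044 to 0.12, and neither gene was DE. Of the listed pathway genes 16 were DE, 14 to 19 with a line left out and 38 by adjusted p alone. In the second batch the count of DE members moved from 1 to 3 with the tenocyte line as a replicate block, to 0 with the IL1Ra libraries left out of the fit, and to between 0 and 4 with a line left out. The DE pathway genes there went from 1 to 8 with the block, to 0 with no filter, quantile normalisation, equal library sums, no trend or 2 conditions only, and to between 0 and 6 with a line left out. Fits with a line left out had 2 lines per condition. Member values that turned direction with a line left out were, for that comparison, SOD1 -0.11 to 0.57, SOD3 -1.26 to 0.61, CAT -0.68 to 0.38 and GCLM -0.55 to 0.15. Between IL-1β with IL1Ra and control, DE members went from 0 to 1 with the block and to between 0 and 2 with a line left out, and the values that turned were SOD1 -0.13 to 0.21 and CAT -0.026 to 0.60, with SOD1 also at -0.065 under equal library sums. Against IL-1β alone they were SOD3 -1.08 to 0.15, CAT -0.41 to 0.91, GPX3 -0.68 to 0.66 and HMOX1 -0.20 to 0.17, with HMOX1 also at 0.10 under equal library sums. None of the turned values was DE in the main fits. The block changed the calls of HMOX1 and TXNRD1 (IL-1β against control, second batch) and of SOD2 (with IL1Ra against control) and no other member's. Equal library sums moved the median of all genes by -0.18 between IL-1β and control and by 0.10 between IL1Ra and IL-1β in the second batch, and other scalings by less than 0.1. The cause of these moves was not tested. In fits with a line left out, the smaller number of lines and the choice of line cannot be told apart. With 3 lines, the second batch leaves intervals wide enough that a missed threshold there does not show that values did not differ.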
